A study of Rattus norvegicus with 4 samples.

Results

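YAP1 and TAZ are transcriptional coactivators, here the genes Yap1 and Wwtr1, that have no DNA-binding domain of their own and act through the TEAD transcription factors. The genes described are 9 of the 31038 gene rows in the deposited tables, chosen by symbol as the coactivators Yap1 and Wwtr1, the DNA-binding partners Tead1 and Tead4, and the target genes Ctgf, Cyr61, Ankrd1, Amotl2 and Lats2. All 9 were found by symbol, Ctgf and Cyr61 under these older names of Ccn2 and Ccn1. Ribosome footprints had been counted in 2 si3m libraries, made from cultured rat myocardial cells whose eIF3m was knocked down with an siRNA, and in 2 siNT libraries, made from such cells given a control siRNA. eIF3m belongs to eIF3, a large complex that helps the small ribosomal subunit load onto messenger RNA. All cells were grown in medium with serum. Their label, NRVM, is the common short form for ventricular myocytes of newborn rats, but the growth protocol has them come from embryos. The sources used here do not give the siRNA sequence, its dose or the time after transfection.

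Hippo signalling is a kinase cascade. The kinases Stk3 and Stk4 with the scaffold Sav1 activate Lats1 and Lats2 with their cofactors Mob1a and Mob1b, and the Lats kinases phosphorylate YAP1 and TAZ, which are then held in the cytoplasm or degraded. Unphosphorylated YAP1 and TAZ enter the nucleus, bind TEAD factors and raise transcription of their targets, which include brakes on the pathway itself, such as Lats2 and Amotl2. In mouse hearts YAP1 is known for driving cardiomyocyte proliferation before and shortly after birth, and TEAD factors bind the DNA sequence known as the M-CAT element in muscle genes.

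The sequence GGAATG, a core that TEAD factors bind, was looked for on both strands (on the other strand it reads CATTCC) in the 250 bases before the annotated start of each gene, from a RefSeq table of the rat assembly GRCr8, which is not the build of the count tables. Only this motif was searched. The table had an entry for 5 of the 9 genes, Yap1, Wwtr1, Ctgf, Cyr61 and Amotl2, and 4 of these windows held the motif. Those of the target genes are shown because their footprints differed in how they changed. Capitals mark the motif.
Ctgf, GRCr8 chr1:22624615-22624864, minus strand: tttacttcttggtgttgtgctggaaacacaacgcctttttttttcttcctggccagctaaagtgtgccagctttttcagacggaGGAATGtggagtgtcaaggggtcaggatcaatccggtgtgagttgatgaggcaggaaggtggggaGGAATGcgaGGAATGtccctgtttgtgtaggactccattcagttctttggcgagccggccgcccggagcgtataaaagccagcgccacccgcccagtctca
Cyr61, GRCr8 chr2:237225690-237225939, minus strand: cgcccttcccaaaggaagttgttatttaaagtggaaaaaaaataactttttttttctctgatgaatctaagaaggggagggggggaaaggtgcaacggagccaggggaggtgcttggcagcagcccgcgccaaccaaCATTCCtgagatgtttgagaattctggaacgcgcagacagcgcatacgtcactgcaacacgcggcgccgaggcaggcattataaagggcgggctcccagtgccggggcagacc
Amotl2, GRCr8 chr8:112182376-112182625, plus strand: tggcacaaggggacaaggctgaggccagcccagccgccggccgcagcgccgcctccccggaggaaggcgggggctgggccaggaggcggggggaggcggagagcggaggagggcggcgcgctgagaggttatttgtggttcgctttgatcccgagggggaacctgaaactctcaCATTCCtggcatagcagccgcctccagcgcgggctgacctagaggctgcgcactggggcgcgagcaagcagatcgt
The Ctgf window held 3 matches, which begin 166, 101 and 92 bases before the start site, all on the strand of the gene. The windows of Cyr61 and Amotl2 held 1 match each, on the other strand, 113 and 76 bases before the start at their first base. Yap1 held 1 match, 116 bases before the start, and Wwtr1 none. Of 33469 windows of the same length in the table, 12.1% held at least 1 match and 0.0807% (27 windows) held 3 or more. A match is a string of letters in a window and says nothing of binding.

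**Figure D1:**
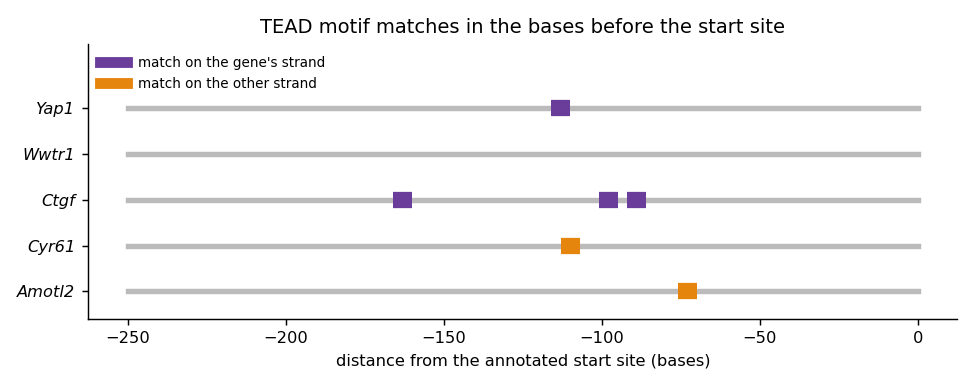
Matches to GGAATG on either strand in the bases before the annotated start site of the 5 genes with a promoter entry; the horizontal axis is the distance from the start site in bases, grey lines are the windows and blocks are matches, coloured by strand. Ctgf has 3 matches, Yap1, Cyr61 and Amotl2 have 1 each and Wwtr1 has none.

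Total counts were 8687598 and 6726969 in the si3m libraries and 3924434 and 3835750 in the siNT libraries. Levels below are CPM, that is counts put on the scale of one common library size with TMM factors. TMM centres the fold changes of all genes, so a gene rises or falls only against the rest of the footprints. Eif3m itself had 137 and 190 CPM in si3m and 530 and 449 CPM in siNT. Its log2 fold change was -1.59 (edgeR adjusted p = 3.41e-08). With the robust setting of the same edgeR test the call was lost (adjusted p = 0.0522), while the log2 fold change stayed at -1.59. RNA-seq libraries were not analysed here, so a lower footprint level can mean less messenger RNA, less translation of it or both. Because the labels do not say that libraries of a group came from separate cultures, p-values cover only the spread among these libraries, and that spread may be technical. Between the libraries of a group, the spread of fragment counts was 1.48 times pure counting noise in si3m and 1.40 times in siNT, by the median chi-square over rows.

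Defining genes of cardiomyocytes were scarce in every library. Of 18 marker genes, 2 of 5 tested were higher (Tnnt2, log2 1.25, and Casq2, log2 0.35) and 2 lower (Pln, log2 -1.56, and Ttn, log2 -0.64). In 13 the lowest library held at most 6 counts, Tnni3, Myl7 and Nppa had 0 in all 4, and the list summed to 387.1 and 387.1 CPM of the library total in si3m and 360.3 and 350.4 CPM in siNT, most of it from Casq2 with 268 and 254 CPM in si3m and 225 and 209 CPM in siNT. Of 12 fibroblast markers, 8 of 9 tested were higher and 1, Fn1, lower, and the list summed to 16370 and 16170 CPM in si3m and 12330 and 12220 CPM in siNT, Col1a1 alone giving 6663 and 6429 CPM in si3m and 3943 and 3845 CPM in siNT. Tcf21 was at 0 in all libraries, and Dcn and Lum were at 0 in both siNT libraries. Dcn, Lum and Pdgfra had no more than 24 counts in any library. Dcn is 1 of the 8 called higher, but it passed the low-count filter only through si3m, so its direction was fixed by the filter. All 4 markers of proliferating cells were higher, with sums of 837.1 and 858.2 CPM in si3m and 597.8 and 562.6 CPM in siNT. Smooth muscle markers, 2 of 7 higher and 1 lower, summed to 3625 and 3634 CPM in si3m and 3289 and 3265 CPM in siNT. Endothelial markers, with 1 of 6 tested and not past the threshold, summed to at most 5.74 CPM. Macrophage markers summed to 1.38 and 1.49 CPM in si3m and 9.68 and 12.0 CPM in siNT, and 1 of 5 was tested and called lower. This was Adgre1, with 4 and 0 counts in si3m and 24 and 34 in siNT, or 6.12 and 8.86 CPM of the siNT sums. It passed the low-count filter only through siNT, so its direction was fixed by the filter. Ptprc, Cd68, Csf1r and Lyz2 had no more than 8 counts in any library. Over all tested rows, 14.0% were called higher and 13.9% lower. Footprints of the YAP/TEAD genes come from the same cells, and whether these were 1 cell type or a mix was not tested. Fewer cells of a type and less RNA per cell cannot be told apart. The part of these marker shifts in the results below was not tested.

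Yap1, Tead1, Ctgf and Lats2 fell in si3m, by 20.7% for Ctgf, 22.7% for Tead1, 26.5% for Yap1 and 31.7% for Lats2. Cyr61 was called higher by 11.3%, at the edge of the threshold, and Wwtr1, Tead4, Ankrd1 and Amotl2 did not pass the test. In all, 4 of the 9 genes were lower and 1 higher. Over all 12672 tested rows edgeR called 27.8% changed, 13.9% lower and 14.0% higher. The share called depends on depth. It was 38.4% of 9509 rows with at least 50 counts in 2 libraries, which 8 of the 9 genes had. The median log2 fold change of the 9 genes was -0.01, against 0.02 over all tested rows. The 2 groups were separate, with no overlap of their libraries, for 7 of the 9 genes and for 63.9% of all tested rows. All 9 genes passed the filter on low counts.

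**Figure D2:**
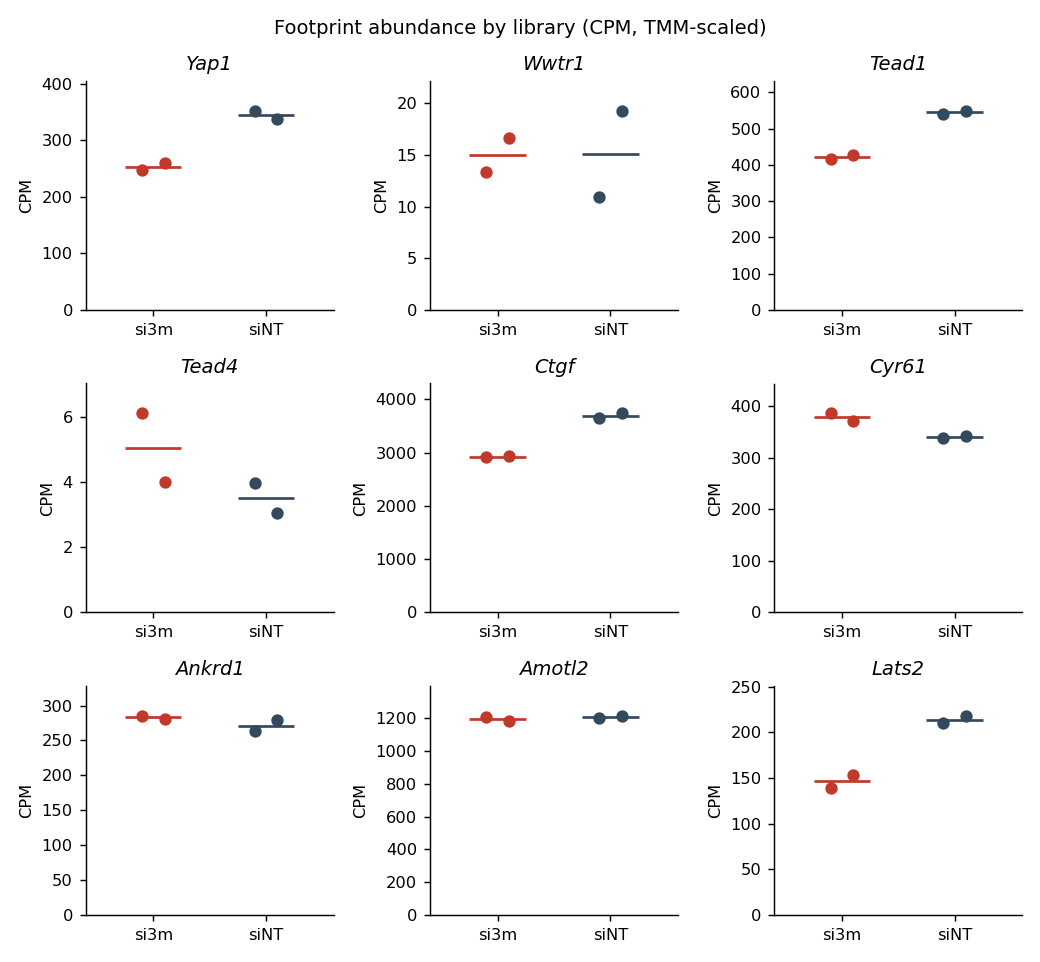
Footprint abundance of the 9 genes in CPM (vertical axes, each starting at 0) in the 2 si3m libraries and the 2 siNT libraries; points are libraries and lines are group means. Both si3m libraries lie below both siNT libraries for Yap1, Tead1, Ctgf and Lats2, and the groups overlap for Wwtr1 and Amotl2.

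Yap1, the coactivator, had 246 and 261 CPM in si3m, against 352 and 337 CPM in siNT. The si3m values were the lower pair, and the gap between groups was several times the difference between libraries of a group. The level averaged 254 ± 9.95 CPM in si3m and 345 ± 10.3 CPM in siNT (SD, n = 2 each). Its log2 fold change was -0.44 (SE 0.059, 95% interval -0.57 to -0.32, edgeR adjusted p = 3.57e-05), a level 1.36-fold lower in si3m. In the 250-base window of this gene GGAATG occurs once, on the strand of the gene.

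Wwtr1, which encodes the coactivator TAZ, had few footprints. Its deposited counts were 114 and 108 in si3m and 44 and 76 in siNT, that is 13.4 and 16.7 CPM in si3m and 10.9 and 19.2 CPM in siNT. The siNT libraries lay on either side of both si3m libraries, so the groups overlap. Its log2 value of -0.01 had a 95% interval from -0.62 to 0.60 (edgeR adjusted p = 0.984), so that a fall of the size seen for Yap1 lies inside the interval. Its value turned to 0.46 without siNT replicate 2 and to -0.36 without siNT replicate 1. At this depth no difference in Wwtr1 was detectable in either direction.

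Tead1, a TEAD factor that binds the M-CAT elements of muscle genes, had 416 and 427 CPM in si3m, against 541 and 549 CPM in siNT. The groups were well apart and the libraries within each were close, at 422 ± 7.85 CPM in si3m and 545 ± 5.76 CPM in siNT (SD, n = 2 each). On the log2 scale Tead1 changed by -0.37 (SE 0.052, 95% interval -0.48 to -0.26, edgeR adjusted p = 6.54e-05). In the GRCr8 annotation 2 predicted genes without a row of their own in the count tables overlap Tead1, and the strand setting of the counting is unknown.

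Tead4, a TEAD factor known from mouse trophectoderm and from muscle cells, had deposited counts of 52 and 26 in si3m and 16 and 12 in siNT. These equal 6.10 and 4.01 CPM in si3m and 3.97 and 3.04 CPM in siNT, where 1 si3m library sat barely above the higher siNT library. The log2 fold change of 0.54 had a 95% interval from -0.49 to 1.56 (edgeR adjusted p = 0.448), which holds the falls of Yap1, Tead1 and Ctgf as well as a rise of more than the estimate. The direction of Tead4 was not detectable at these counts. As with Tead1, a predicted gene without a row of its own in the count tables overlaps Tead4 in the GRCr8 annotation.

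Among the target genes, Ctgf, which encodes the secreted matrix-associated protein CCN2, was covered by the most counts. It had 2911 and 2939 CPM in si3m, against 3638 and 3734 CPM in siNT. Both si3m libraries were lower, and libraries of a group differed by little, with means of 2925 ± 19.5 CPM in si3m and 3686 ± 67.9 CPM in siNT (SD, n = 2 each). The log2 fold change was -0.33 (SE 0.027, 95% interval -0.39 to -0.28), and its edgeR adjusted p of 1.47e-07 was the smallest of the 9 genes. This is the gene whose window, printed above, holds 3 GGAATG matches.

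Cyr61, which encodes CCN1, the secreted relative of CCN2 in the same family, did not follow Ctgf. It had 386 and 372 CPM in si3m, against 339 and 343 CPM in siNT. Both si3m libraries were above both siNT libraries, by a margin larger than the differences within groups. The difference was 0.15 on the log2 scale (SE 0.055, 95% interval 0.04 to 0.27, edgeR adjusted p = 0.0493). The call was lost in 10 of 15 alternative settings, with adjusted p up to 0.373, among them the 4 that left out a library (0.0862 without siNT replicate 1, 0.0525 without its replicate 2, 0.213 without si3m replicate 1 and 0.0523 without its replicate 2), although the sign was the same in all 15. Whatever the call, the interval excludes a fall of the size seen for Ctgf.

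Ankrd1 encodes a cardiac ankyrin repeat protein that is abundant in heart muscle under load and is also a YAP1 target. It had 285 and 281 CPM in si3m, against 263 and 280 CPM in siNT. The lower si3m value and the higher siNT value were nearly equal, and the log2 fold change of 0.06 (95% interval -0.06 to 0.19, edgeR adjusted p = 0.477) did not pass. Its sign turned with total count scaling, to -0.02.

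Amotl2 encodes an angiomotin-like protein of cell junctions that binds YAP1 and holds it out of the nucleus. It had 1212 and 1185 CPM in si3m, against 1202 and 1216 CPM in siNT, and the groups overlap. With 4802 or more deposited counts in each library, its log2 fold change of -0.01 had a narrow 95% interval from -0.09 to 0.07 (edgeR adjusted p = 0.847). The value ranged from -0.09 to 0.01 over the alternatives.

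Lats2, the kinase that phosphorylates YAP1 and TAZ and whose transcription YAP1 raises in turn, had the largest fall of the 9 genes. It had 139 and 154 CPM in si3m, against 210 and 218 CPM in siNT. The si3m libraries were clearly below the siNT libraries, with means of 146 ± 10.2 CPM in si3m and 214 ± 5.93 CPM in siNT (SD, n = 2 each). Lats2 had a log2 fold change of -0.55 (SE 0.073, 95% interval -0.71 to -0.40, edgeR adjusted p = 3.65e-05), a level 1.47-fold lower in si3m.

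**Figure D3:**
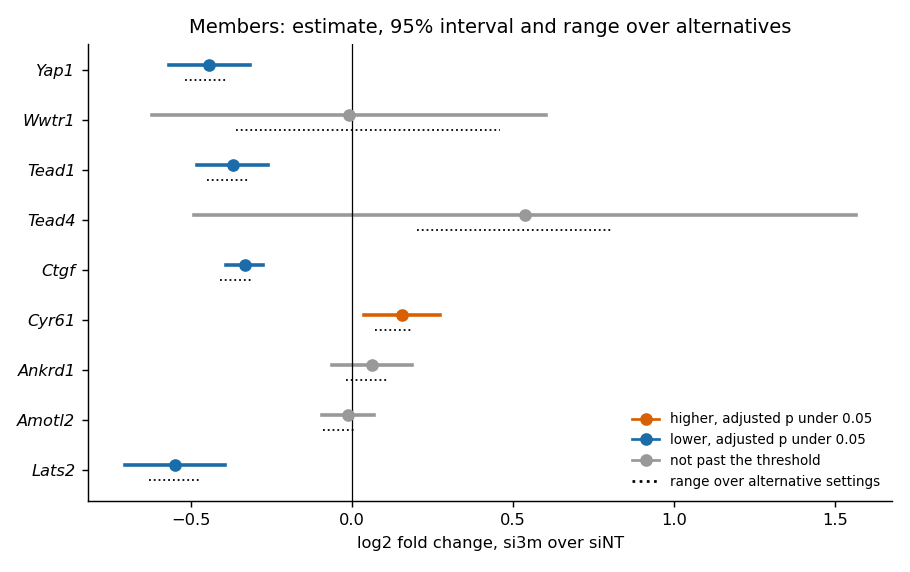
Log2 fold change of the 9 genes, si3m over siNT (horizontal axis): points are estimates, coloured lines their 95% intervals and dotted lines the range of the estimate over the alternative settings. Yap1, Tead1, Ctgf and Lats2 lie below 0 throughout, Cyr61 lies just above 0, and the intervals of Wwtr1 and Tead4 are wide.

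Ratios of counts within a library do not depend on how libraries are scaled. Such a ratio is not a ratio of protein or of level per length, and only its change between groups is read here. Ctgf had 7.53 and 7.90 counts for each count of Cyr61 in si3m, against 10.7 and 10.9 in siNT, so that the ratio fell by 28.7%. The ratio of Ctgf to Ankrd1 was 10.2 and 10.5 in si3m and 13.8 and 13.4 in siNT, and that of Ctgf to Amotl2 was 2.40 and 2.48 in si3m and 3.03 and 3.07 in siNT. Relative to Cyr61, Ankrd1 and Amotl2, Ctgf was thus lower in both si3m libraries. These pairs set a gene called lower beside genes not called lower, so their direction follows from the fold changes above. The log2 fold change of Lats2, at -0.55, lay below that of Ctgf. No p is given for these ratios, because an exact test of 2 libraries against 2 cannot go below 0.05.

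Ratios among the genes called lower are a description only, since these genes were grouped by their fall. For each count of Yap1 there were 1.69 and 1.64 counts of Tead1 in si3m, against 1.54 and 1.63 in siNT. Lats2 had 0.565 and 0.589 counts per count of Yap1 in si3m and 0.597 and 0.647 in siNT, and Ctgf had 11.8 and 11.3 in si3m and 10.3 and 11.1 in siNT. Mean ratios of Ctgf and Tead1 to Yap1 were 7.82% and 5.11% higher in si3m, and that of Lats2 fell by 7.21%. The groups did not overlap in these 3 ratios, but for Tead1 they were only 1.64 against 1.63 apart. In CPM the groups did not overlap for 63.9% of all tested rows, so such separation is common here. The ratio of Cyr61 to Yap1 was 1.57 and 1.43 in si3m, against 0.963 and 1.02 in siNT, and that of Amotl2 to Yap1 was 4.92 and 4.55 in si3m, against 3.42 and 3.61 in siNT.

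**Figure D4:**
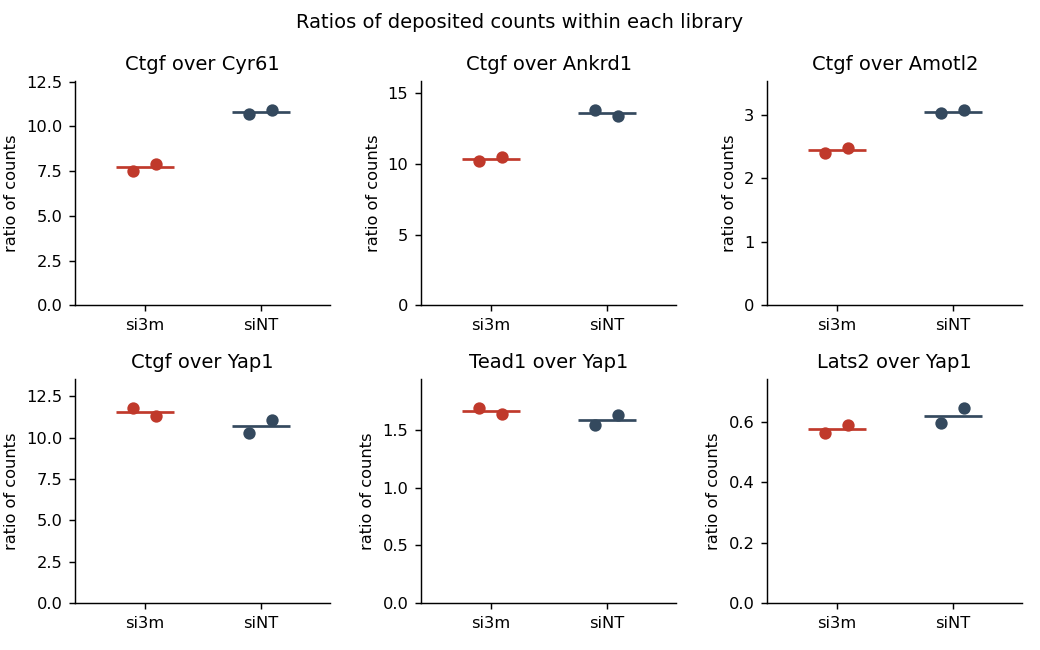
Ratios of deposited counts of pairs of genes within each library (vertical axes, each starting at 0); points are the 2 si3m and 2 siNT libraries and lines are group means. The upper row sets Ctgf, called lower, beside Cyr61, Ankrd1 and Amotl2, not called lower, and its ratios are lower in both si3m libraries. The lower row shows ratios among genes chosen because they were called lower.

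The kinases and upstream regulators of the Hippo pathway moved in both directions. Of 20 tested genes, 6 were higher, 5 lower and 9 not past the threshold (median log2 0.00), and Wwc1 was too low to be tested. Over all tested rows, 14.0% were higher and 13.9% lower. Lats1, the second Lats kinase, fell beside Lats2, with 131 and 118 CPM in si3m, against 182 and 180 CPM in siNT (log2 -0.54, SE 0.079, edgeR adjusted p = 1.02e-04). Mob1a, the cofactor that activates the Lats kinases, fell as well, with 289 and 282 CPM in si3m and 407 and 397 CPM in siNT (log2 -0.49, SE 0.056, adjusted p = 6.95e-06). Its close relative Mob1b had 178 and 176 CPM in si3m and 187 and 170 CPM in siNT, with overlapping groups and an interval of the log2 fold change from -0.16 to 0.14.

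Stk3, a kinase that activates the Lats kinases, rose, with 70.0 and 63.2 CPM in si3m and 43.7 and 40.0 CPM in siNT (log2 0.67, SE 0.14, edgeR adjusted p = 0.00180). Its scaffold Sav1 rose, with 31.2 and 33.0 CPM in si3m and 21.8 and 18.2 CPM in siNT (log2 0.68, SE 0.20, adjusted p = 0.0179). The Sav1 call was lost in the DESeq2 test (0.0554), without siNT replicate 2 (0.0591), without si3m replicate 1 (0.0591) and without si3m replicate 2 (0.106). Stk4, the paralog of Stk3, had 40.4 and 50.4 CPM in si3m and 54.1 and 50.1 CPM in siNT, and did not pass (log2 -0.20, 95% interval -0.53 to 0.12). Nf2, which encodes the upstream activator merlin, had 44.8 and 48.7 CPM in si3m and 52.6 and 52.2 CPM in siNT, and did not pass (log2 -0.17, 95% interval -0.46 to 0.13).

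Amot, which encodes angiomotin, a partner that holds YAP1 in the cytoplasm, fell, with 63.4 and 72.5 CPM in si3m and 104 and 111 CPM in siNT (log2 -0.67, SE 0.11, edgeR adjusted p = 2.62e-04). Its relative Amotl1, named after its value was seen, had 88.7 and 91.9 CPM in si3m and 67.5 and 68.4 CPM in siNT (log2 0.41, SE 0.11, adjusted p = 0.0103, and 0.0665 without si3m replicate 2). With Amotl2 as given above, the 3 angiomotin genes thus had log2 fold changes of -0.67, 0.41 and -0.01. Frmd6, a FERM-domain protein upstream of the Hippo kinases, rose, with 195 and 226 CPM in si3m and 138 and 120 CPM in siNT (log2 0.71, SE 0.089, adjusted p = 2.21e-05).

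None of the 4 tested genes among the other TEAD factors and TEAD cofactors passed, and Vgll2 had 0 counts in all libraries. Tead2 had 10.3 and 9.87 CPM in si3m and 5.95 and 9.12 CPM in siNT (log2 0.42, 95% interval -0.28 to 1.13). Tead3 had 11.0 and 14.5 CPM in si3m and 8.43 and 9.62 CPM in siNT (log2 0.49, 95% interval -0.13 to 1.12). Vgll3, a cofactor that binds TEAD factors in place of YAP1, had 179 and 169 CPM in si3m and 184 and 211 CPM in siNT (log2 -0.18, edgeR adjusted p = 0.0927), and passed with total count scaling or without siNT replicate 1. Vgll4, which competes with YAP1 for TEAD factors, had 63.1 and 52.1 CPM in si3m and 51.1 and 56.7 CPM in siNT (log2 0.10, 95% interval -0.20 to 0.41). Only Tead1 among the TEAD factors was read deeply enough for a narrow interval.

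Of the other genes in a published signature of 22 YAP/TAZ targets, 5 of 15 tested rose, 3 fell and 7 did not pass. Their median log2 was 0.02, and over all tested rows 14.0% were higher and 13.9% lower. Fjx1, 1 of the 5 that rose, had only 10 and 4 counts in siNT. Its siNT libraries alone would not have passed the low-count filter, so the filter favoured a rise. Arhgef17 matched no row used here and Igfbp3 had no more than 2 counts in any library. Axl, a receptor tyrosine kinase, rose, with 87.6 and 90.7 CPM in si3m and 40.2 and 47.1 CPM in siNT (log2 1.03, SE 0.13, edgeR adjusted p = 1.93e-05). Myof, which encodes the membrane repair protein myoferlin, rose, with 1186 and 1167 CPM in si3m and 947 and 940 CPM in siNT (log2 0.32, SE 0.040). Ccdc80, a secreted matrix protein, rose, with 1205 and 1215 CPM in si3m and 1007 and 1016 CPM in siNT (log2 0.26, SE 0.039). Foxf2, a forkhead transcription factor, fell, with 23.2 and 19.7 CPM in si3m and 36.7 and 44.6 CPM in siNT (log2 -0.91, SE 0.19, adjusted p = 0.00185). Each of these 4 genes kept its direction and its call in all 15 alternatives.

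**Figure D5:**
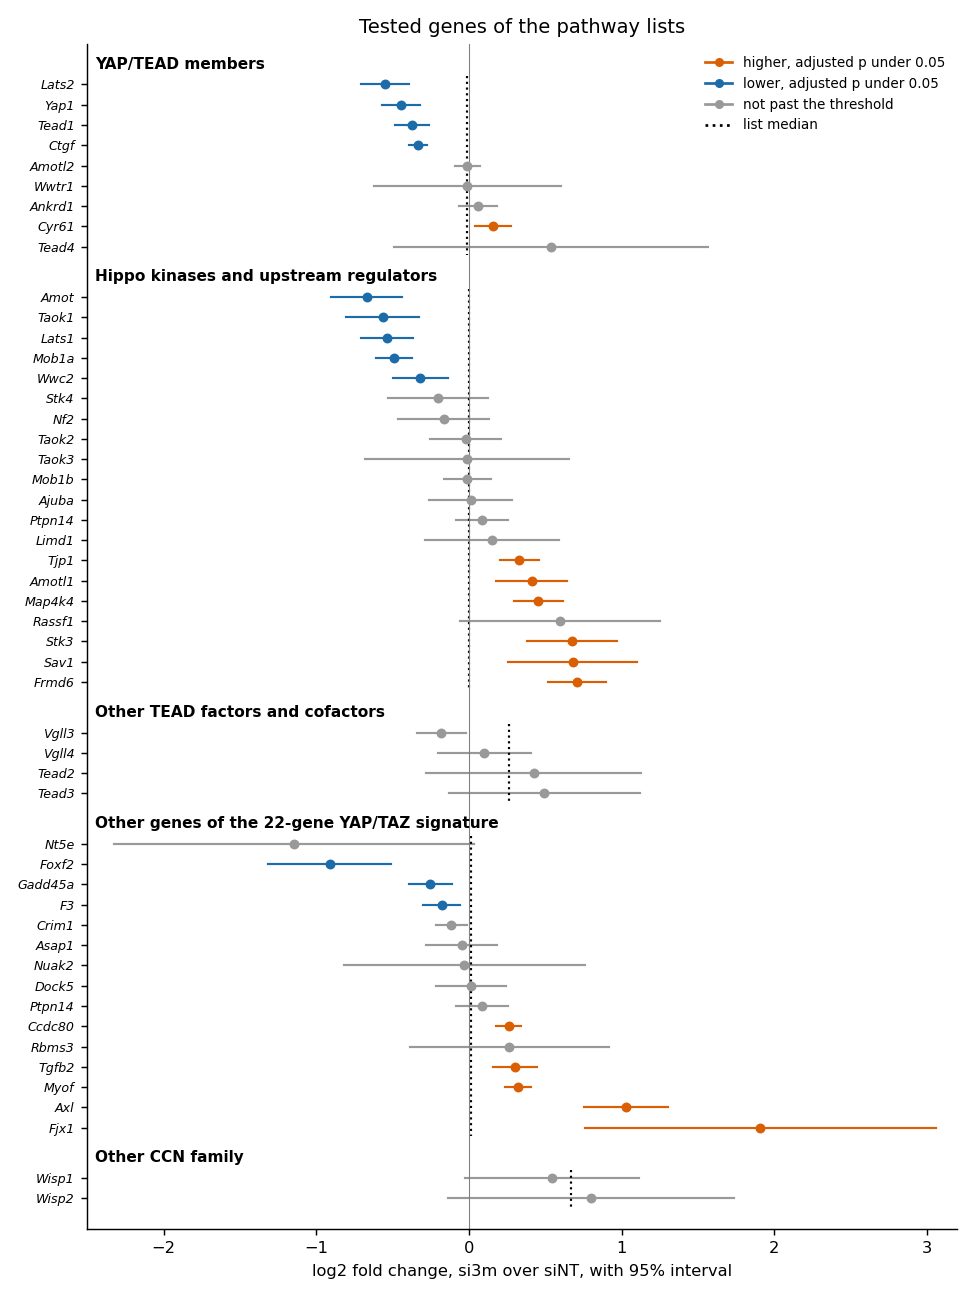
Log2 fold change, si3m over siNT, with its 95% interval (horizontal axis) for each tested gene of the 5 lists, coloured by whether it passed the test, with the list median as a dotted line. Each of the Hippo and signature lists has genes on both sides of 0, with medians of 0.00 and 0.02.

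Of the other CCN family genes, Wisp1 (Ccn4) and Wisp2 (Ccn5) had enough counts to be tested and neither passed. Wisp1 had 30.0 and 27.4 CPM in si3m and 26.8 and 12.7 CPM in siNT, the siNT libraries differing by more than the groups (log2 0.54, 95% interval -0.03 to 1.11), and of 15 alternatives it passed in 1, without siNT replicate 1. Wisp2 had 7.51 and 5.55 CPM in si3m and 2.98 and 4.56 CPM in siNT (log2 0.80, 95% interval -0.14 to 1.74). Nov (Ccn3) and Wisp3 (Ccn6) had no more than 2 counts in any library.

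The genes with the most similar values to Ctgf over the 4 libraries, by distance between log2 CPM values centred on each gene among 7400 named coding genes of at least 10 CPM, were Ptpn2, a tyrosine phosphatase, Ranbp2, a nuclear pore protein, and Hsf2, a heat shock transcription factor. Their distances were 0.0118, 0.0212 and 0.0230 and their log2 fold changes were -0.35, -0.35 and -0.34, of which that of Ptpn2 did not pass (edgeR adjusted p = 0.115). For Cyr61 they were Mapk8, a stress-activated kinase, Nsl1, a kinetochore protein, and Cpe, a carboxypeptidase, with distances of 0.0134, 0.0208 and 0.0211 and log2 fold changes of 0.17, 0.17 and 0.15, none of which passed (adjusted p = 0.246, 0.630 and 0.0598). With only 4 libraries in 2 groups, such likeness is mainly a like fold change.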

How the data were processed

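Ribosome-protected fragments were counted per gene by the authors, and the deposited values are whole-number counts with no normalization, 1 table per library. Per the submitters' processing notes, the genome build was rn6 and the tools included HISAT2 2.2.1, Trimmomatic 0.40 and featureCounts, besides DESeq2 and limma; what each did, and with which strand setting, is not given in the sources used here. Between 94.9% and 97.3% of counts above 0 were even, as if fragments had been counted as 2 reads.

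The si3m group was set against the siNT group in edgeR 4.0.16 (R 4.3.3), on all rows: filterByExpr (minimum count 10), TMM scaling, glmQLFit and glmQLFTest without a block, two-sided, with Benjamini-Hochberg adjustment over 12672 tested rows and a threshold of 0.05. SEs are the log2 fold change divided by the root of F, and intervals use the test's degrees of freedom and are not adjusted. CPM sums of marker lists are shares of the library total. DESeq2 1.42.0 and the other settings in the closing section were alternatives. The genes and lists were chosen with earlier results of these data known. Genes named from a list were its 4 tested genes with the smallest p, the core kinases and all TEAD factors and cofactors tested. The result of 1 gene of the Hippo list is not reported here, and it is left out of the counts of that list. Gene names and promoter windows came from RefSeq (GRCr8).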

Additional observations from a re-analysis of the deposited data

How the results depend on the processing

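Yap1, Tead1, Ctgf and Lats2 kept their fall and their call in all 15 alternatives, with log2 fold changes between -0.52 and -0.39, -0.45 and -0.32, -0.41 and -0.31, and -0.63 and -0.47. The count of the 9 genes called higher, 1 (Cyr61), became 0 with DESeq2 size factors, total count scaling, the DESeq2 test, thinned counts, the replicate block and protein-coding rows only (chosen after seeing the data), and also without each of the 4 libraries in turn (0 in each case). Over all rows, 3528 were called, 1771 higher and 1757 lower. Total count scaling gave 1428 higher and 2214 lower, and the replicate block 3694 in all. The replicate numbers are not said to mark a shared culture, and the deviations of same-numbered libraries correlated at -0.019, so the numbers were not taken to pair the libraries. Of the values of single genes, 25 lost and 6 gained a call and none that was called turned its sign. Low counts, none of them 0, limit Wwtr1 and Tead4, and Tead4 had too few for the filter of 50. For other genes, a count of 0 in a library would allow 3 fragments. This equals 0.691 to 1.56 CPM of the library total (counting error only).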

Other observations

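Further genes of the Hippo list that passed the test, named after their values were seen, included Map4k4, a kinase that can act on the Lats kinases, at 167 and 172 CPM in si3m and 124 and 124 CPM in siNT (log2 0.45, SE 0.076, edgeR adjusted p = 3.24e-04). Tjp1, a tight junction scaffold, had 305 and 311 CPM in si3m and 237 and 253 CPM in siNT (log2 0.33, adjusted p = 5.85e-04). Taok1, a kinase upstream of the Hippo kinases, had 77.9 and 67.5 CPM in si3m and 115 and 101 CPM in siNT (log2 -0.57, adjusted p = 0.00128).

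In the signature of YAP/TAZ targets, Fjx1, which encodes a secreted relative of a fly planar polarity protein, had only 48 and 50 counts in si3m and 10 and 4 in siNT (log2 1.91, SE 0.54, edgeR adjusted p = 0.0150, and 0.165 without si3m replicate 2). Fjx1 passed the low-count filter through its si3m libraries, which favoured a rise. Tgfb2, a TGF-beta ligand, had 211 and 228 CPM in si3m and 180 and 176 CPM in siNT (log2 0.30, adjusted p = 0.00369). Gadd45a, a growth arrest gene, had 193 and 189 CPM in si3m and 219 and 237 CPM in siNT (log2 -0.25, adjusted p = 0.00878), a call lost with thinned counts and without siNT replicate 2. F3, the coagulation initiator tissue factor, had 412 and 389 CPM in si3m and 443 and 464 CPM in siNT (log2 -0.18, adjusted p = 0.0262), a call lost with thinned counts and without siNT replicate 2 or si3m replicate 2.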
